A study of Mus musculus with 12 samples.

Results

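The genes described here encode the inflammatory signals that act on hepatocytes in a damaged or regenerating liver, and the question put to the data was whether their DNA copy number was altered in liver tumors. The members were chosen by name: Tnf, Lta and Ltb (ligands of the TNF family), Il6, Il6ra and Il6st (interleukin 6 and the subunits of its receptor), Jak2, Stat3 and Socs3 (the kinase, the transcription factor and the feedback inhibitor downstream of that receptor) and Nfkb1 (a subunit of the transcription factor NF-kB). Of these 10 genes, 9 had at least 1 probe under their own name, with 16 own probes in all, among 20464 gene names tested. Ltb had no probe of that name and was not analysed here. Tnf and Lta lie next to each other and shared 20 of the 21 probes used for each, so the 9 genes stand for 8 loci and Tnf and Lta are not independent.

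In the liver, TNF and IL-6 released by Kupffer cells and other immune cells prime hepatocytes for division after partial hepatectomy (PHx). TNF activates the IkB kinases, which mark the IkB inhibitors for degradation and so release NF-kB to the nucleus. IL-6 binds Il6ra, and the pair recruits Il6st (gp130), whose associated Janus kinases phosphorylate Stat3, while Socs3, itself a Stat3 target, shuts the receptor down. Sustained activity of both pathways is well known in chronic liver inflammation and in hepatocellular carcinoma. The arrays measured DNA only, so they hold no level of RNA, protein or phosphorylation for any of these genes.

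DNA of 12 liver tumors was compared by array-based comparative genomic hybridization (aCGH), which measures the amount of tumor DNA relative to a reference at each probe. All mice were Mdr2-KO mice of the FVB strain, which lack the transporter that secretes phospholipids into bile and develop chronic liver inflammation and then tumors. Post-PHx tumors came from 6 mice aged 9 months (4 males, 2 females) whose liver had been resected by 70% at the age of 3 or 6 months, and spontaneous tumors from 6 untreated mice aged 13 to 14 months (2 males, 4 females). Each tumor was set against non-tumor liver taken at a distance in that mouse, which carries the same deletion and had the same treatment. Each tumor was 1 array (tumor in red, reference in green, no dye swap). Age and treatment differed together between the groups and cannot be told apart, and 1 slide of 3 held arrays of both groups. The sex ratio differed too, but both sexes were in each group, so sex can be told apart from group only in part. Tumors and reference tissue were whole pieces, so the share of altered cells and the number of copies per cell cannot be told apart.

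Signals stood at a median of 7.07 to 25.9 times background for the reference DNA and 3.80 to 11.9 times for the tumor DNA, and neighbouring probes differed with a spread of 0.147 to 0.265 (log2 ratio). The log2 ratio of a gene was taken as the mean over its window, that is its own probes and 10 probes on each side, 21 to 23 probes spanning 0.331 to 1.39 Mb. On this scale 0 means as much DNA as in the non-tumor liver, and the gain or loss of 1 of 2 copies in every cell would give 0.58 or -1. The filter of the study's methods for an aberration was a mean of at least 0.4 in either direction. The own probes of all 9 genes were well above background in both channels on all 12 arrays.

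None of the 108 windows (9 genes in 12 tumors) reached the filter. Over all genes, 1.87% of the gene and tumor pairs lay at or above 0.4 and 1.01% at or below -0.4. No member lay in a region called amplified or deleted by an ADM-2-like score, which weights each probe by its deposited error, whereas 1.73% of all gene and tumor pairs lay in an amplified and 0.692% in a deleted region. At the weaker filter of 0.25, 1 window was gained, that of Nfkb1 in PHx4M, and 4 were lost, those of Jak2 in Spon1M and Spon2M, of Il6st in Spon1M and of Socs3 in Spon3F, so 5 of the 108 pairs passed. The shares of all pairs at that filter were 4.6% for gain and 3.38% for loss. By group, 1 of 54 post-PHx member pairs was a gain (1.85%, beside 3.52% of all genes in these tumors) and 4 of 54 spontaneous pairs were losses (7.41%, beside 6.48%), and all other windows lay within 0.25 of the level of the non-tumor liver.

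**Figure D1:**
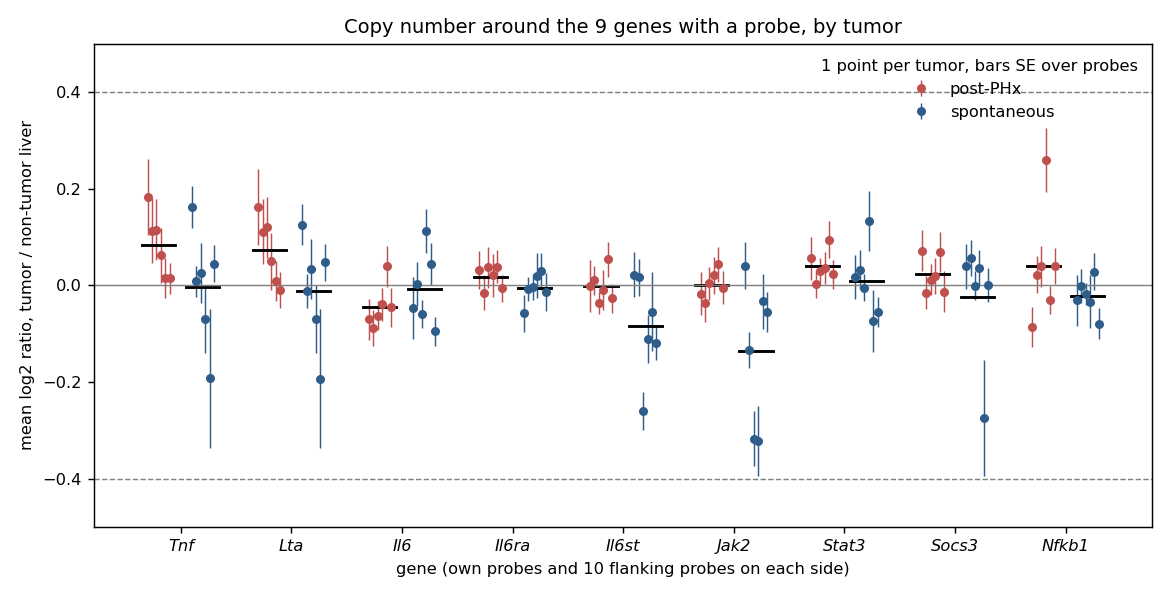
Mean log2 ratio of tumor over non-tumor liver in the window of each of the 9 genes (y axis), 1 point per tumor, with post-PHx tumors in red and spontaneous tumors in blue. Bars on points are the standard error over the probes of the window, black lines are group means (n = 6 each) and dashed lines mark the filter of 0.4 in either direction. No point reaches the filter, and the points farthest from 0 are Jak2 in Spon1M (-0.32) and Spon2M (-0.32), Socs3 in Spon3F (-0.27), Il6st in Spon1M (-0.26) and Nfkb1 in PHx4M (0.26).

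Jak2, the Janus kinase bound to many cytokine and growth factor receptors, had the lowest levels. Its own probes lie on chromosome 19 from 29341073 to 29357304 (genome build mm8, as in all positions here). The 6 post-PHx tumors ranged from -0.037 to 0.044 (median -0.00039, mean 0.0016 ± 0.028 SD). The 6 spontaneous tumors ranged from -0.32 to 0.041 (median -0.095, mean -0.14 ± 0.15 SD). Spon1M, at -0.32, and Spon2M, at -0.32, had 0.80 times the DNA of the non-tumor liver, with 20 of 22 probes below 0 in each. They were the 2 males of the spontaneous group. Both were on the slide that held only spontaneous tumors, as were Spon3F and Spon4F. Spon6F came next at -0.13 and Spon4F lay at -0.055, just under the post-PHx range, while Spon3F at -0.033 and Spon5F at 0.041 lay inside it.

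The low ratio at Jak2 was part of a shift along the chromosome. The median over all probes of chromosome 19 was -0.42 in Spon2M, -0.26 in Spon1M, -0.15 in Spon6F and -0.082 in Spon4F. In Spon4F this level was not particular to chromosome 19. The medians there were -0.090, -0.089 and -0.091 on the chromosomes of Il6ra, Il6 and Il6st, and -0.054 and -0.014 on those of Stat3 and Tnf. The Jak2 window lay 0.099 above that median in Spon2M and 0.061 below it in Spon1M. The segment that held Jak2 spanned 643 probes from 8852776 to 40516197 in Spon1M (mean -0.28), 368 probes from 17029506 to 40516197 in Spon2M (mean -0.41) and all 1324 probes of the chromosome in Spon6F (mean -0.15). In Spon2M the plain mean of the segment passed the filter, while its error-weighted level of -0.39 did not, so no deletion was called there. The Jak2 segments of Spon1M and Spon2M ended at the same position, and these arrays shared a slide. Around Tnf, Il6 and Socs3 the segments of both tumors had the same start and end. Around Il6st, Il6ra, Stat3 and Nfkb1 they shared a start or an end. Whether the shared slide had a part in this was not tested.

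The difference between groups at Jak2 was 0.14 ± 0.06 (SE; 95% interval 0.0065 to 0.27). It did not pass the threshold over all genes (limma, two-sided, adjusted p = 0.754, unadjusted p = 0.041; exact permutation test, two-sided, unadjusted p = 0.0498, n = 6 per group). The difference was 0.066 on the slide that held both groups and 0.044 with the own probes alone. Against 0, the spontaneous tumors gave -0.14 ± 0.043 (SE; limma, adjusted p = 0.127) and the post-PHx tumors 0.0016 ± 0.043 (adjusted p = 0.9997). The model used 1 spread for both groups, here and for the other genes. The SE of a group mean therefore does not measure the spread of that group alone (SD 0.028 in the post-PHx and 0.15 in the spontaneous tumors). Of all genes, 0% were called in the post-PHx tumors, in the spontaneous tumors or between groups (limma, 0 of 20464 in each; 1410, 3385 and 1304 had an unadjusted p under 0.05). The spontaneous mean of Jak2 passed with sex in the model (-0.16, adjusted p = 0.0416), where 5.82% of all genes were called (1190, of which 1102 below 0). It also passed without Spon5F (-0.17, adjusted p = 0.0492), where 2.97% of all genes were called (607, of which 581 below 0).

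Il6st, the signal-transducing subunit shared by the receptors of the IL-6 family, had a similar but shallower pattern. Its own probes lie on chromosome 13 from 113602283 to 113627276. Post-PHx tumors ranged from -0.036 to 0.054 (median -0.0053) and spontaneous tumors from -0.26 to 0.022 (median -0.083). Spon1M was lowest at -0.26, with 20 of 22 probes below 0, followed by Spon4F at -0.12 and Spon2M at -0.11, while Spon5F and Spon6F lay inside the post-PHx range. Spon1M, Spon2M and Spon4F were on the slide that held only spontaneous tumors, and Spon5F and Spon6F on the slide that held both groups. Both own probes were at or below -0.31 in Spon1M (-0.43 and -0.36) and in Spon2M (-0.33 and -0.31). The medians over chromosome 13 were -0.24 in Spon1M, -0.12 in Spon2M and -0.091 in Spon4F, so the Il6st window differed from its chromosome by at most 0.028 in these tumors. In Spon4F the medians of the chromosomes of Il6, Il6ra and Jak2 were close to that of chromosome 13. The spontaneous mean of -0.084 ± 0.033 (SE) did not pass the threshold (limma, adjusted p = 0.219), nor did the difference between groups of 0.083 ± 0.047 (adjusted p = 0.979; 95% interval -0.019 to 0.18). On the slide that held both groups, the difference was -0.0059.

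**Figure D2:**
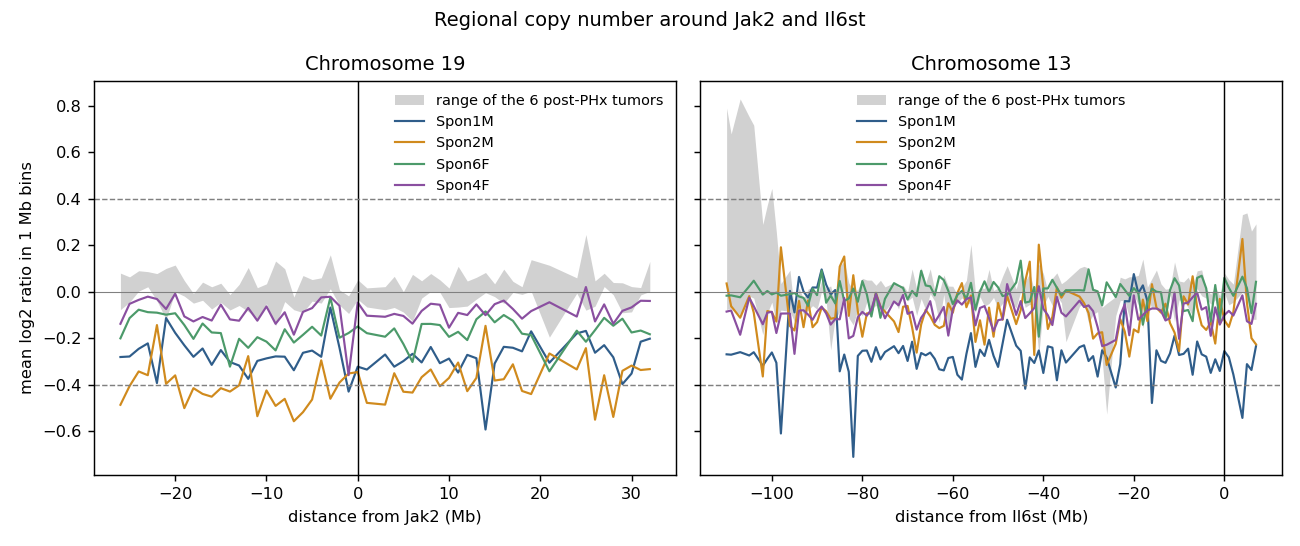
Mean log2 ratio in bins of 1 Mb along chromosome 19 and chromosome 13 (y axis), by distance from Jak2 and from Il6st in Mb (x axis, gene at the vertical line). Coloured lines are 4 spontaneous tumors, the grey band is the range of the 6 post-PHx tumors and dashed lines mark the filter of 0.4. Spon1M and Spon2M run below the band along nearly all of chromosome 19, at medians of -0.26 and -0.42, and Spon1M along most of chromosome 13, at a median of -0.24, on both sides of each gene.

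The other genes of the IL-6 branch stayed near the level of the non-tumor liver. Il6ra, the IL-6 binding subunit on chromosome 3 (own probes from 89955349 to 89986597), had the narrowest range of all members, from -0.058 in Spon5F to 0.039 in PHx5M. Its difference between groups was 0.023 (95% interval -0.040 to 0.087). Il6, the cytokine itself, on chromosome 5 from 30349806 to 30349865, ranged from -0.088 to 0.039 in post-PHx tumors (median -0.054) and from -0.095 to 0.11 in spontaneous tumors (median -0.022). The highest value, 0.11 in Spon2M, lay below the median of chromosome 5 in that tumor, which was 0.14.

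Stat3, on chromosome 11 from 100730430 to 100746417, was above 0 in 6 of 6 post-PHx tumors (0.0026 to 0.094, median 0.033) and in 3 of 6 spontaneous tumors (-0.074 to 0.13, median 0.0063). Its highest value, in Spon2M, again sat close to the median of its chromosome (0.13 against 0.11). Socs3, further along the same chromosome at 117782351 to 117782410, lay between -0.015 and 0.072 in the post-PHx tumors and between -0.00081 and 0.057 in 5 of the 6 spontaneous tumors. Spon3F stood apart at -0.27. On that array the 21 probes of the Socs3 window had an SD of 0.55, against 0.14 to 0.21 on the other 11 arrays, and their median was -0.13. The segment around Socs3 in Spon3F held 10 probes with a mean of -0.078, and no deletion was called.

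The TNF locus was the member locus with the widest range. Tnf, the cytokine that starts the NF-kB response, has 1 probe on chromosome 17 from 34807517 to 34807576, and Lta, lymphotoxin alpha, 1 probe from 34811452 to 34811511. The Tnf window was above 0 in 6 of 6 post-PHx tumors (0.015 to 0.18, median 0.088) and in 4 of 6 spontaneous tumors (-0.19 to 0.16, median 0.017). The highest values were 0.18 in PHx1M, 0.16 in Spon5F, 0.12 in PHx3M and 0.11 in PHx2F, and the lowest was -0.19 in Spon3F, so the groups overlapped. In Spon3F the probes of this window too were widely spread (SD 0.66, median -0.030). The post-PHx mean of 0.084 ± 0.039 (SE) did not pass the threshold (limma, adjusted p = 0.724), nor did the difference of 0.088 between groups (adjusted p = 0.979; 95% interval -0.031 to 0.21), which was -0.070 on the slide that held both groups. The SE of 0.039 rests on the spread of both groups (SD 0.066 in the post-PHx and 0.12 in the spontaneous tumors). In the post-PHx tumors the medians of chromosome 17 lay between -0.058 and 0.016. The segment that held Tnf had an error-weighted level of 0 in PHx1M, PHx2F, PHx3M and PHx4M, -0.0549 in PHx5M and -0.0905 in PHx6F.

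Nfkb1, which encodes the p105 precursor of the p50 subunit, lies on chromosome 3 and was covered by 3 probes from 135522153 to 135574579. PHx4M was the 1 tumor with a gain at 0.26, or 1.2 times the DNA of its non-tumor liver, with 2 of 23 probes below 0 and own probes at 0.20, 0.30 and 0.28. The other 5 post-PHx tumors ranged from -0.086 to 0.040 and the 6 spontaneous tumors from -0.079 to 0.029. In PHx4M the gene lay in a segment of 97 probes, from 134103473 to 139520296, with a mean of 0.32. It stood 2.06 Mb beyond the end of an amplified region of 110 probes, from 126374947 to 133459075, with a mean of 0.47. The difference between groups was 0.063 (limma, adjusted p = 0.979; 95% interval -0.047 to 0.17), and 0.020 without PHx4M.

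The amplified regions on the chromosomes of Tnf and Il6 also left the gene out. On chromosome 17, PHx6F was amplified from 40416263 to 51350221 (254 probes, mean 0.85) and Spon6F from 42512511 to 47553980 (168 probes, mean 1.27). These regions began 5.61 and 7.70 Mb beyond Tnf, and the nearest amplified stretch of 5 probes or more to Tnf began 4.95 Mb away, in PHx6F. The segment that held Tnf had a mean of -0.095 in PHx6F and -0.091 in Spon6F. On chromosome 5, the amplified regions at the start of the chromosome in PHx1M, PHx2F, PHx3M and PHx6F closed at 9741756 or earlier, at least 20.6 Mb before Il6, whose windows in these tumors lay between -0.088 and -0.045. A short amplified region of 8 probes lay 6.08 Mb beyond Il6 in Spon2M. In Spon3F, short deleted regions of 6, 9 and 5 probes lay 3.24 Mb from Il6, 4.6 Mb from Stat3 and 5.71 Mb from Tnf.

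**Figure D3:**
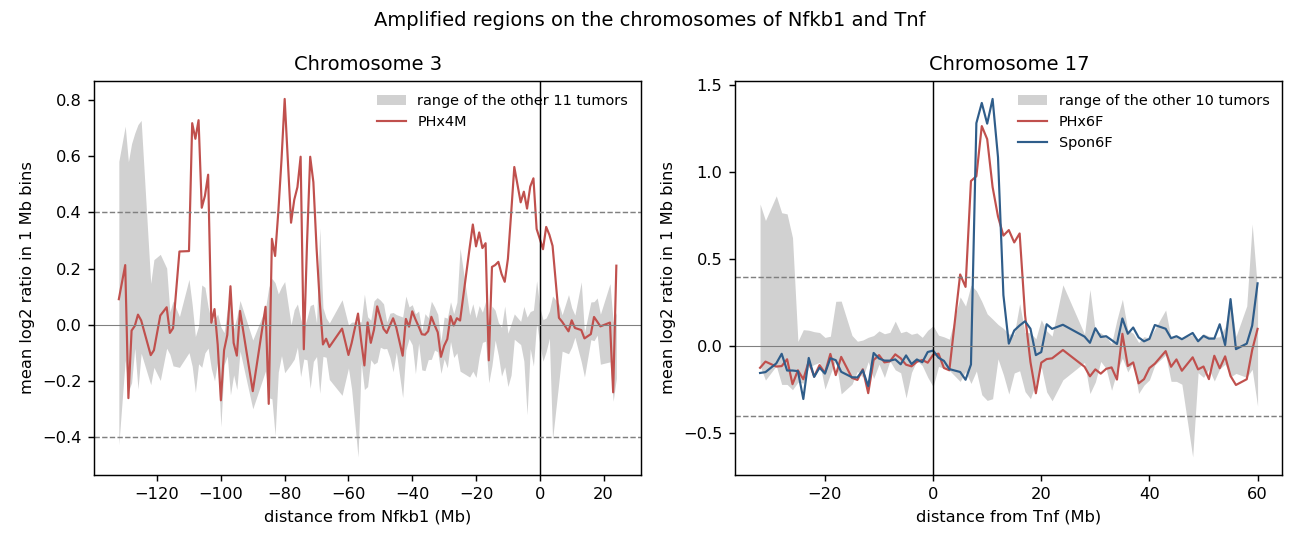
Mean log2 ratio in bins of 1 Mb along chromosome 3 and chromosome 17 (y axis), by distance from Nfkb1 and from Tnf in Mb (x axis, gene at the vertical line). Coloured lines are PHx4M on the left and PHx6F and Spon6F on the right, grey bands are the range of the other tumors and dashed lines mark the filter of 0.4. Nfkb1 sits on the shoulder of a gain in PHx4M, at a segment mean of 0.32 beside a region at 0.47, and Tnf sits 5.61 and 7.70 Mb before the regions amplified in PHx6F and Spon6F.

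Between groups, no member had post-PHx and spontaneous ranges that did not overlap, as 0.298% of all genes had. The median difference over the 9 members was 0.063, beside 0.012 over all genes. Their median was 0.024 against 0 in the post-PHx tumors (0.00091 over all genes) and -0.011 in the spontaneous tumors (-0.0075 over all genes). These medians count Tnf and Lta separately, although the windows of both share 20 probes. On the slide that held both groups, the differences of Tnf, Lta, Il6st and Socs3 fell below 0. That of Il6 rose above 0 there, and the other members kept their sign. Whether the members depart from all genes was not tested. The largest of the 9 differences was that of Jak2, and the 95% interval of every member's difference lay within -0.13 and 0.27.

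A copy number change of a single gene can be shorter than a window, so the own probes of each gene were also set against its flanking probes over the 12 tumors. Own probes departed from their surroundings at 5 of the 9 members (limma, adjusted p under 0.05), and at 23.6% of all genes (4638 of 19616). Those of Stat3 lay above by 0.16 ± 0.037 (SE; adjusted p = 0.00874) and that of Tnf by 0.083 ± 0.028 (adjusted p = 0.0485). Those of Socs3 (-0.18 ± 0.033, adjusted p = 0.00235), Il6ra (-0.077 ± 0.025, adjusted p = 0.0404) and Lta (-0.26 ± 0.088, adjusted p = 0.0496) lay below. Without a dye swap, a fixed offset of a probe and a change shared by all tumors cannot be told apart.

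The single probes behind these departures varied in how alike they were between tumors. The Socs3 probe was below 0 in 12 of 12 tumors, from -0.30 to -0.055, and the departure kept its call in all 15 alternatives tried for it. The Stat3 probes were highest in Spon2M (0.59 and 0.56), and their departure was 0.0046 (adjusted p = 0.919) after normexp background correction. The Lta probe ranged from -0.72 in Spon2M to 0.40 in PHx5M, while the neighbouring Tnf probe ranged from -0.0053 to 0.30, and the Lta departure lost its call in 13 of 15 alternatives (adjusted p up to 0.115). The departure of Tnf lost its call in 9 of 15 alternatives (adjusted p up to 0.107) and that of Il6ra in 11 of 15 (up to 0.0879). The own probes of Il6, Il6st, Jak2 and Nfkb1 did not pass this test, but those of Il6 and Nfkb1 did after normexp, at -0.081 (adjusted p = 0.0240) and 0.088 (adjusted p = 0.0127), with the opposite sign to before. After normexp 45.8% of all genes were called.

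**Figure D4:**
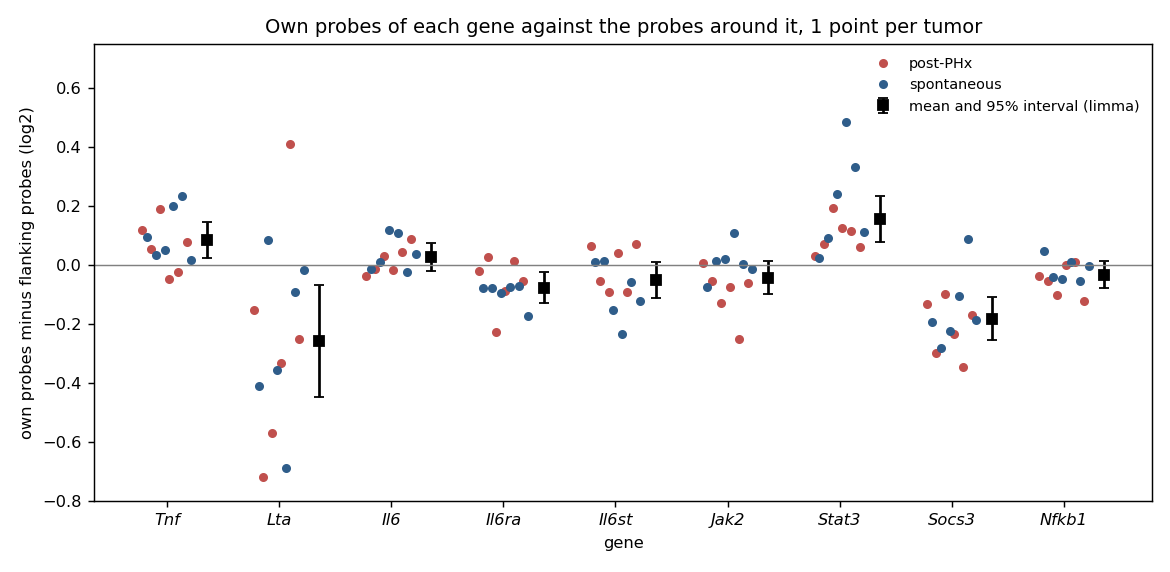
Mean log2 ratio of the own probes of each gene minus that of its 20 flanking probes (y axis), 1 point per tumor, post-PHx in red and spontaneous in blue, with the mean over the 12 tumors and its 95% interval from limma in black. The Socs3 interval lies below 0 and the Stat3 interval above it, and the points of Lta spread over more than those of any other member.

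Beyond the members, a list of 70 other genes of the same pathways was examined, of which 62 had a probe (Tab1 under an older name). None of the 62 passed the threshold in either group or between groups (limma, smallest adjusted p 0.313 in the post-PHx tumors, 0.0697 in the spontaneous tumors and 0.681 between groups). In single tumors, 10 of 372 post-PHx pairs reached the filter as gains (2.69%, beside 2.21% of all genes) and none as losses (0% of all genes too). In the spontaneous tumors 4 of 372 pairs were gains (1.08%, beside 1.53%) and 10 were losses (2.69%, beside 2.02%).

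The strongest gains lay among inhibitors and partners of NF-kB. Nfkbie, which encodes the inhibitor IkB epsilon, stood at 1.26 in Spon6F (2.39 times the DNA of the non-tumor liver) and at 1.15 in PHx6F (2.21 times), inside the chromosome 17 regions that left Tnf out. Bcl3, an IkB-like partner of the p50 and p52 subunits, stood at 0.90 in PHx3M and 0.55 in PHx1M, and Relb, the subunit of the alternative NF-kB pathway that lies beside it on chromosome 7, at 0.86 and 0.52 in the same tumors. Both genes lay in 1 amplified region in each tumor, of 424 probes with a mean of 1.06 in PHx3M and of 84 probes with a mean of 0.55 in PHx1M. Of the TNF family, Tnfsf13b (BAFF, a survival factor of B cells) stood at 0.70 in PHx3M, Tnfsf10 (the death ligand TRAIL) at 0.68 in PHx4M and Cd40 (a receptor of the TNF family) at 0.63 in PHx4M, each in an amplified region.

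The listed genes that reached the filter as losses did so in spontaneous tumors, and over all genes too no post-PHx pair reached it. Socs4, a relative of Socs3, stood at -0.60 in Spon5F, within a deleted region that covered nearly all of chromosome 14 (1540 probes, mean -0.49). Map3k14 (NIK, the kinase that starts the alternative NF-kB pathway) stood at -0.58 in Spon3F, where no region called deleted held it. Of the 10 pairs that reached the filter as losses, 6 were in Spon3F, 3 in Spon5F and 1 in Spon2M. Of these pairs, Socs4 and Tnfsf11 in Spon5F and Traf5 and Pias4 in Spon3F lay in a region called deleted. Map3k14, Stat6, Traf2 and Rela in Spon3F, Tnfrsf1b in Spon5F and Cntf in Spon2M did not. In Spon3F the probes of the Tnf and Socs3 windows were widely spread, and whether this had a part in the losses on that array was not tested.

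On chromosome 19, the genes listed beside Jak2 were Rela, Nfkb2, Chuk, Fas and Cntf, which encode NF-kB subunits, an IkB kinase, a death receptor and a cytokine of the IL-6 family. In Spon2M they ranged from -0.41 to -0.23 and in Spon1M from -0.32 to -0.25, beside -0.32 at Jak2 in both tumors. Ripk1, the kinase of the TNF receptor complex on chromosome 13, stood at -0.24 in Spon1M and -0.20 in Spon2M, beside -0.26 and -0.11 at Il6st.

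**Figure D5:**
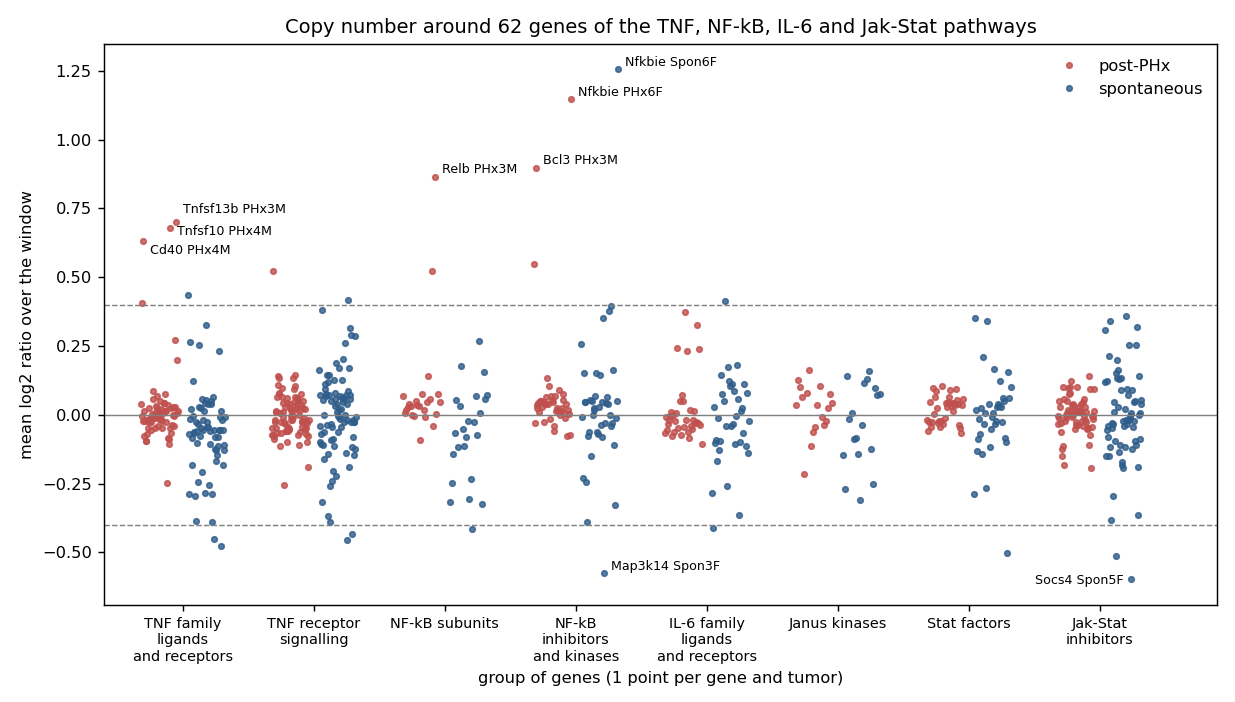
Mean log2 ratio over the window of 62 other genes of the pathways (y axis), 1 point per gene and tumor, by group of genes (x axis), with post-PHx tumors in red and spontaneous tumors in blue and dashed lines at the filter of 0.4. The named points are those at or beyond 0.55 in either direction that are described in the text, led by Nfkbie at 1.26 in Spon6F and 1.15 in PHx6F. Janus kinases have no point past the filter.

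Over the 12 tumors, the listed genes on other chromosomes whose window means were most like those of Tnf were Pias3 (Pearson's r = 0.79), an inhibitor of Stat3, Rela (0.75) and Stat6 (0.69). All 3 had low values in Spon3F (-0.29, -0.42 and -0.50), as Tnf had, and without that tumor the coefficients were 0.48, 0.53 and 0.16 over 11 tumors. These values share arrays and were picked as the highest of the list, so they are a description of these arrays.

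Of the 62 listed genes, 16 (25.8%, beside 23.6% of all genes) had own probes that departed from their flanking probes, 7 above and 9 below. Those above were Bcl3, Chuk, Ikbkb, Jak1, Map3k7, Relb and Tnfaip3 (0.11 to 0.26). Those below were Cyld, Fas, Ikbkg, Socs1, Socs4, Stat2, Stat5a, Stat5b and Tnfsf13b (-0.24 to -0.097). The share was close to that of all genes.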

How the data were processed

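The authors deposited 1 Agilent Feature Extraction (10.5.1.1) file per array. Its deposited signal intensities are background-subtracted and scaled per dye, and its deposited log10 ratio divides the tumor signal (red) by that of the reference liver (green) and comes with an error. Positions are on build mm8 (NCBI36). The ratios were multiplied to the log2 scale, control and outlier-marked spots (108 to 1218 per array) dropped, spots of a probe averaged, and each of the 12 arrays centred on its autosomal median.

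Windows held a gene's own probes and 10 on each side. Names that were positions, lay on several chromosomes or spanned over 3 Mb were left out. limma 3.58.1 in R 4.3.3 (lmFit, eBayes, Benjamini-Hochberg over all genes, threshold 0.05, no covariates) tested each group against 0, the difference, and own against flanking probes (genes with a value in every tumor), and was tested on simulated data. Each fit held all 12 arrays, with 1 mean per group and 1 estimate of the spread shared by both groups. Aberrant regions needed an interval score, weighted by the deposited errors (threshold 6, at least 2 probes, mean of at least 0.4). Python 3.11.15 (matplotlib 3.10.9, numba 0.67.0, numpy 2.4.6, pandas 2.3.3) served for the rest. Precision rests on the number of tumors, with 1 array for each.

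The members and lists were chosen with earlier results of these data known. The text names every member, listed genes past a threshold, the 10 listed pairs farthest from 0 past the filter, and the 3 genes most like the member locus with the widest range. Relb in PHx1M and the listed genes beside Jak2 and Il6st were chosen after their values were seen. Of the 70 listed genes, 8 had no probe of their name.

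The alternatives were normexp (offset 50), no or mode centring, outlier spots kept, dim probes left out, 5 or 20 flanking probes, own probes alone, the window median, sex, slide or tumor number in the model, filters of 0.25 and 0.6, score thresholds of 5, 8 and 10, equal weights, and each tumor left out.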

Additional observations from a re-analysis of the deposited data

Results flagged for a closer look

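A gap test was run on the 6 window means of each group for each of the 9 genes (18 groups), and chance marks about 1 in 20 such groups. It marked Socs3 in Spon3F, at -0.2742 against -0.00081 to 0.057 in the other 5 spontaneous tumors, and Nfkb1 in PHx4M, at 0.2589 against -0.086 to 0.040 in the other 5 post-PHx tumors. For Socs3, the probes of the window had an SD of 0.55 on that array and a median of -0.13. For Nfkb1, all 3 own probes lay between 0.20 and 0.30, and the surrounding segment of 97 probes had a mean of 0.32.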

How the results depend on the processing

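The median red signal was 3.80 to 11.9 times the background. With 1 array per tumor, a shift at a single probe in 1 tumor could not be separated from probe noise. A shift shared by all tumors, as at the Socs3 probe, could not be told apart from a fixed offset of the probe. No member passed in the difference between groups under any limma alternative. Without adjustment, the exact permutation test gave 1 of the 9 a p under 0.05 (Jak2, p = 0.0498), and limma 1304 of all 20464 genes. The difference at Jak2 ranged from 0.044 (own probes alone) to 0.18 and that at Nfkb1 from 0.020 (without PHx4M) to 0.089. For the post-PHx tumors own probes alone called 1 member, Socs3, at -0.178 (adjusted p = 0.0367). For the spontaneous tumors own probes alone called 1 (Socs3), sex in the model 1 (Jak2), and leaving out single tumors 0 to 1 (Jak2, without Spon5F). Over all genes, where 0 spontaneous calls were made, sex in the model gave 1190, own probes 850, normexp 797, the mode 307 and leaving out Spon5F 607, while the post-PHx tumors gave 547 with own probes and 5 with normexp, and own against flanking probes 8978 with normexp in place of 4638. Own against flanking probes called 3 members with 20 flanking probes and 2 to 5 with single tumors left out (2 without PHx1M, PHx3M, PHx6F, Spon1M, Spon3F, Spon4F or Spon5F, and 3 without PHx2F, PHx4M or Spon2M). Over all genes, that comparison called 4624 of 19616 with 20 flanking probes. With single tumors left out it called from 3628 of 19728 (without PHx3M) to 4831 of 19630 (without Spon2M). With own probes alone, 2 post-PHx losses (Lta in PHx2F and PHx3M), 1 spontaneous gain (Stat3 in Spon2M) and 1 spontaneous loss (Lta in Spon2M) passed the filter. At 0.25, 1 post-PHx gain and 4 spontaneous losses passed, and 1 amplified and 3 deleted regions held a member. The share of all genes was not computed for own probes alone at the filter or for regions at 0.25. These counts therefore have no background beside them. The causes were not tested.

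Of 765 values of single members, 63 changed sign, 3 of them with a call in either fit. In the post-PHx tumors own probes gave Lta -0.183, Il6ra -0.0322, Jak2 -0.0844 and Nfkb1 -0.00271. Normexp gave Il6 0.0113 and Nfkb1 -0.0289. Il6st became 0.0102 with sex, 0.0223 and 0.00409 with 5 and 20 flanking probes and 0.00475 with the mode. Jak2 became -0.0163 and -0.00442 with 5 and 20 flanking probes, -0.00903 with the median and -0.00406 without centring. In the spontaneous tumors Tnf became 0.0370 with 5 flanking probes, 0.0968 with own probes, 0.0188 with the median, 0.0204 with normexp and 0.00191 without centring. Lta became 0.0300 and 0.00168 with 5 and 20 flanking probes, 0.00577 with the median and 0.0161 with normexp. Il6 became 0.000307 with sex, 0.00824 with 20 flanking probes, 0.0316 with own probes and 0.0393 with normexp. Normexp gave Il6ra 0.00348 and Socs3 0.0215, and the median gave Socs3 0.0153. The differences became, with slide as a block or on the slide with both groups, -0.0697 for Tnf, -0.0573 for Lta, 0.0190 for Il6, -0.00590 for Il6st and -0.0204 for Socs3, and with own probes -0.0724 for Stat3 and -0.0112 for Socs3. Own against flanking probes under normexp became -0.0805 for Il6, 0.0549 for Il6st and 0.0876 for Nfkb1. Leaving out single tumors, signs changed within -0.0028 to 0.0634 for the difference at Socs3, -0.0126 to 0.0053 for Il6st, -0.0067 to 0.0094 for Jak2 and -0.0028 to 0.0662 for Nfkb1 in the post-PHx tumors, and in the spontaneous tumors -0.0304 to 0.0110 for Il6, -0.0125 to 0.0050 for Il6ra, -0.0389 to 0.0250 for Lta, -0.0396 to 0.0267 for Socs3, -0.0168 to 0.0245 for Stat3 and -0.0363 to 0.0344 for Tnf.

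The labels do not say what tumors with the same number have in common, and some such pairs shared a slide or a sex. The correlation of their deviations was -0.17 to 0.55 over the 6 pairs. The 0.55 was that of PHx6F and Spon6F, both female and on the same slide, and the other pairs lay between -0.17 and -0.013. The number as a replicate block called 0 members and 0 genes and changed no call.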
